A study of Danio rerio with 8 samples.

Results

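The translation initiation factors (eIFs) and elongation factors (eEFs) of zebrafish embryos were followed through the depletion of the heart and fin transcription factor Tbx5a and the co-injection of a miR-19a mimic. Array probes were taken as members where the gene symbol, reached through the accession each probe was designed on, begins with eif or eef and a digit. This gave 176 of 39162 probes, for 75 of 12792 named genes. All 176 entered the tests, since no probe was removed for a low level. The series measured RNA of whole AB embryos at 24 hpf on 8 single-colour Agilent arrays, each from a pool of 50 embryos, and asks how far miR-19a moves the Tbx5a-depleted transcriptome back towards the control. The group MO-Tbx5a+miR-19a (3 arrays) received at the 1-cell stage 1.5 ng of a morpholino, an antisense oligonucleotide that here blocks the start of tbx5a translation, and the miR-19a mimic (0.25 ng). MO-Tbx5a (3 arrays) received the same morpholino with a control mimic, and MO-Ct (2 arrays) a control morpholino with the control mimic, in the same amounts.

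Translation begins when eIF2 brings the initiator tRNA to the small ribosomal subunit, on which eIF1, eIF1A, eIF3 and eIF5 assemble. The cap-binding eIF4E, the scaffold eIF4G and the helicase eIF4A then recruit the mRNA, while eIF2B recharges eIF2 with GTP. In elongation eEF1A delivers aminoacyl-tRNAs, the eEF1B subunits recharge it, eEF2 moves the ribosome along the codons, and eIF5A eases difficult peptide bonds. These proteins are made in every cell, and many of their mRNAs are among the abundant messages of an embryo.

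Several facts limit the groups. A whole-embryo pool cannot tell fewer cells of a type from less RNA per cell. The tbx5a transcript is not analysed here. In the samples given miR-19a the label for treatment reads MO-19a, where titles and design name a miR-19a mimic, and the design was followed. The labels also give another labelling kit for this group, with 0.5 ug of RNA against 200 ng in MO-Tbx5a and MO-Ct, so kit and group cannot be told apart in its comparisons. The 3 scanner files of this group did not follow their own columns of the expression matrix. Over the 176 members their Spearman correlation with their own column was 0.978, 0.967 and 0.971, and with MO-Ct replicate 2 it was 0.979, 0.979 and 0.972. Signals of the scans entered no comparison. Nothing in the labels says that arrays of a group came from separate injections, so p-values measure the spread between these arrays. Of 24 tissue markers listed, 21 had a probe, and 17 of these were above 7 on the log2 scale in every group, and 3, nova2, hbbe1.1 and vmhc, had no probe. In MO-Tbx5a against MO-Ct 5 markers fell (tnnt3b of skeletal muscle, cryba2b of lens, and kdrl, cdh5 and fli1 of endothelium) and col2a1a of notochord and cartilage rose. With miR-19a against MO-Tbx5a 5 fell (elavl3 of neurons, alas2 of blood, mipa and cryba1b of lens, and apoea of yolk and liver) and cdh5 rose. Against MO-Ct, MO-Tbx5a+miR-19a had 5 markers lower (tnnt3b, kdrl, mipa, cryba1b and cryba2b) and 0 higher. Of the 12792 named genes, each by its brightest probe, 20.6%, 20.3% and 6.62% were lower in these comparisons, in this order. The shares higher were 16.5%, 21.0% and 5.52%. The mean level of the 21 markers on an array was 10.87 to 11.08 in MO-Tbx5a+miR-19a, 11.08 to 11.17 in MO-Tbx5a and 11.19 to 11.34 in MO-Ct, and its part in the results on translation factors was not tested. Array medians over all probes lay between 7.77 and 7.80.

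Values below are log2 signals as deposited, and changes are differences of group means on that scale with the standard error (SE) of the fit. A probe was called where its fold change passed 1.3 with an adjusted p under 0.05 in limma. The word "rose" or "fell" is used only of called probes. Probes of a gene are numbered by their mean over the 8 arrays, probe 1 being the highest. The numbering only names them, since the signal of a probe does not measure the amount of RNA relative to another probe.

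In MO-Tbx5a embryos the factors of initiation fell more often than they rose. Of the 176 probes, 73 fell against MO-Ct (41.5%), where 19.6% of all probes fell. A further 21 rose (11.9%), where 18.7% of all probes rose, and 82 were not called, so that 53.4% were called in either direction where 38.4% of all probes were. The changes ran from -1.98 to 1.28, with a median of -0.22 against 0.01 over all probes. The 120 probes counted under initiation gave 59 falls and 11 rises, with a median of -0.39. They took in regulators of initiation: the eIF2 kinases (0 falls among 4 probes), eIF6 (2 of 2) and the eIF4E partners (4 of 11). The 45 elongation probes, with eIF5A among them, gave 13 falls and 8 rises, with a median of -0.01. Members were mostly bright, and in each level class a higher share of them fell than of all probes. In the brightest of 3 equal level classes of the array, 57 of 139 member probes fell (41.0%), where 23.6% of all probes of that class did, and in the middle class 14 of 26 fell (53.8%), where 25.2% of all did. In the dimmest class 2 of 11 fell (18.2%), where 10.1% of all did. Rises were not fewer in each class. In the middle class 8 of 26 rose (30.8%, against 24.8% of all), in the brightest 13 of 139 (9.35%, against 22.2%) and in the dimmest 0 of 11 (against 9.22%). On single arrays the median member lay 0.21, 0.25 and 0.31 below the MO-Ct mean in MO-Tbx5a.

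With miR-19a the direction was the opposite one. Against MO-Tbx5a, 65 probes rose in MO-Tbx5a+miR-19a (36.9%), where 20.2% of all probes rose, and 27 fell (15.3%), where 21.9% of all fell. Called in either direction were 52.3%, where 42.2% of all probes were. The median change was 0.17 against -0.02 over all probes. The arrays of the groups did not overlap for 83 of the 92 called probes (90.2%), where 97.3% of all called probes had no overlap. Of the 73 probes that fell in MO-Tbx5a, 62 rose with miR-19a (84.9%), 11 were not called and 0 fell further, where 71.9% of all 7694 probes that fell in MO-Tbx5a rose with miR-19a. Of the 21 that rose, 15 fell with miR-19a (71.4%, against 72.9% of all) and 6 were not called. These comparisons share the MO-Tbx5a arrays with opposite sign, which favours opposite changes by construction. Against MO-Ct, MO-Tbx5a+miR-19a had 5 member probes higher (2.84%), where 5.24% of all probes were, and 8 lower (4.55%), where 5.95% of all were, together 7.39% where 11.2% of all probes were called. Its arrays had median members 0.03, 0.13 and 0.00 below the MO-Ct mean.

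Counted by gene, with the brightest probe standing for each, the shift was smaller. In MO-Tbx5a 23 of 75 genes fell (30.7%) and 4 rose (5.33%), where 20.6% of the 12792 named genes fell and 16.5% rose, and the median was -0.10 against -0.03. With miR-19a against MO-Tbx5a 21 genes rose (28.0%) and 11 fell (14.7%), where 21.0% and 20.3% of all named genes did, and the median change was -0.01 against 0.01. The upward median over probes with miR-19a was thus not seen over genes by their brightest probe. Set against MO-Ct, 1 gene was higher in MO-Tbx5a+miR-19a (1.33%) and 4 were lower (5.33%), where 5.52% and 6.62% of all named genes were.

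**Figure D1:**
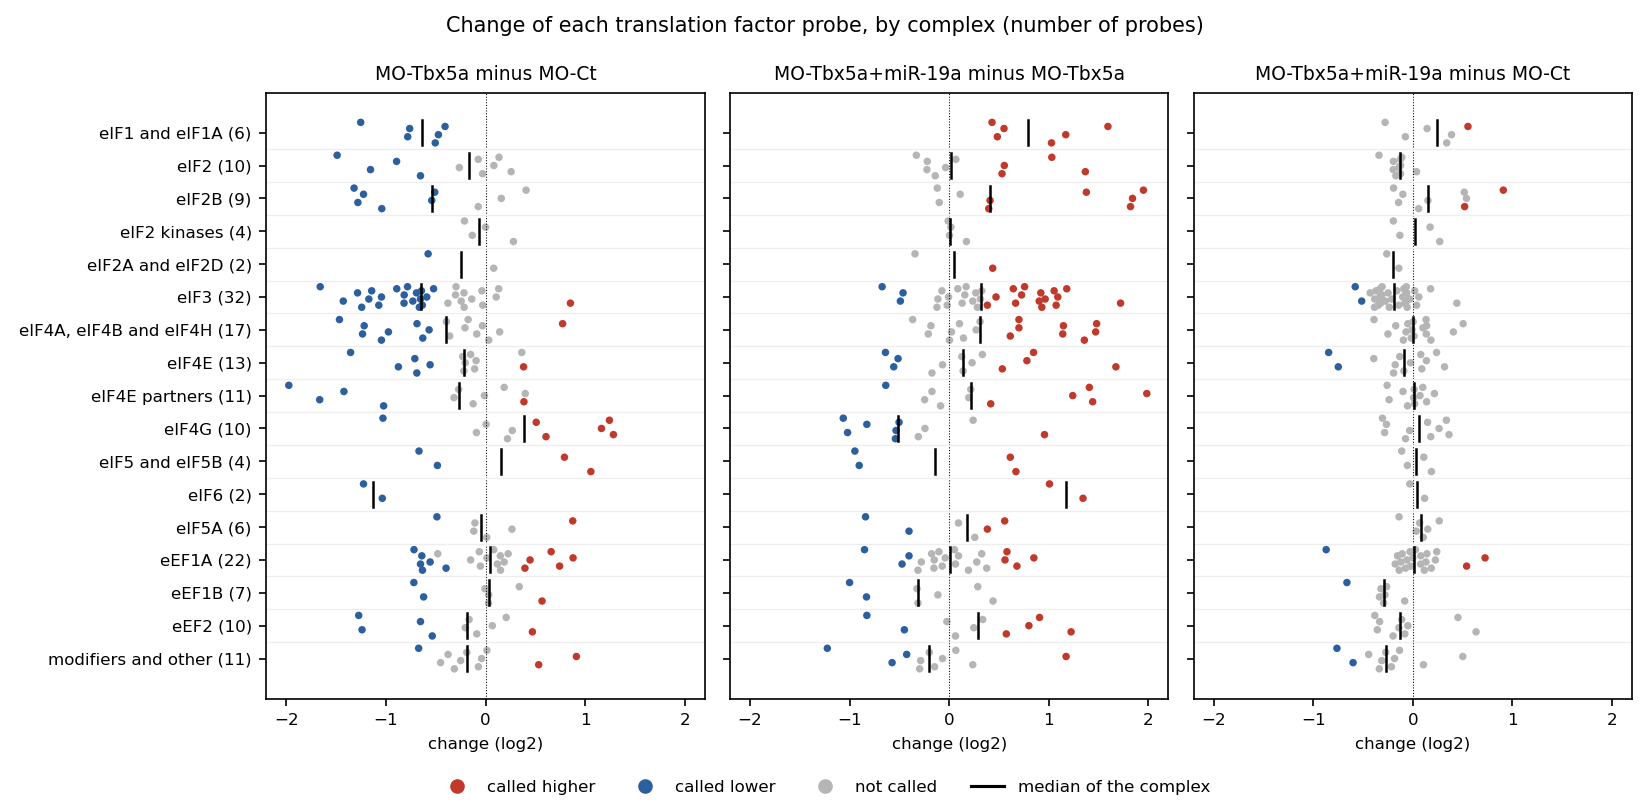
Change of each of the 176 translation factor probes on the log2 scale, by complex with its number of probes, in MO-Tbx5a minus MO-Ct, MO-Tbx5a+miR-19a minus MO-Tbx5a and MO-Tbx5a+miR-19a minus MO-Ct. Red points rose, blue points fell, grey points were not called, and black bars are medians. The eIF1, eIF2B, eIF3 and eIF6 probes lie mostly left of 0 in the first panel, the eIF4G probes mostly right of it, and 13 probes are coloured in the third panel.

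The small factors eIF1 and eIF1A, which hold the scanning ribosome open, fell as a group. All 6 probes of eif1, eif1axa, eif1axb and eif1b fell in MO-Tbx5a (median -0.63) and all 6 rose with miR-19a (median 0.79). The probe of eif1 read 12.19, 11.44 and 11.86 in MO-Tbx5a+miR-19a, 10.47, 10.37 and 9.87 in MO-Tbx5a, and 11.43 and 11.55 in MO-Ct. Every MO-Tbx5a array was below every other array. The change was -1.25 ± 0.21 in MO-Tbx5a against MO-Ct (adjusted p = 0.000585) and 1.59 ± 0.19 with miR-19a against MO-Tbx5a (adjusted p = 3e-05). The eif1axa probes fell by -0.41 and -0.51, and these calls were lost when single arrays were left out. For probe 1 these were MO-Ct replicate 1 or MO-Tbx5a replicate 1, and for probe 2 MO-Ct replicate 2 or MO-Tbx5a replicate 3. The fall of eif1b probe 1 (-0.47) was lost without either MO-Ct array or MO-Tbx5a replicate 1. With miR-19a the rise of eif1axb was lost without replicate 1 of MO-Tbx5a or of MO-Tbx5a+miR-19a. That of eif1axa probe 2 was lost without replicate 3 of MO-Tbx5a or of MO-Tbx5a+miR-19a.

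The subunits of eIF2, the carrier of the initiator tRNA, gave 4 falls among 10 probes, 1 in each of eif2s1a, eif2s1b, eif2s2 and eif2s3. For 3 of these genes the brighter probes were not called. Probe 1 of eif2s1b, an alpha subunit, read 12.30, 11.94 and 12.45 in MO-Tbx5a+miR-19a, 11.45, 11.25 and 10.90 in MO-Tbx5a, and 12.30 and 12.41 in MO-Ct. It fell by 1.16 ± 0.18 in MO-Tbx5a against MO-Ct (adjusted p = 0.000315). For its paralog eif2s1a, probe 3 fell (-1.49 ± 0.16, adjusted p = 3.09e-05), whereas probe 1 changed by 0.08 ± 0.14 and probe 2 by -0.03. Probe 1 of eif2s2, the beta subunit, and of eif2s3, the gamma subunit, changed by 0.14 and 0.26 without a call, and the fall of probe 2 in both was lost without MO-Ct replicate 2. The eIF2 alpha kinases eif2ak1 and eif2ak2, which shut initiation down under stress, had 0 of 4 probes called by limma in any comparison. There was 1 probe at an unadjusted p under 0.05 for MO-Tbx5a and 1 for MO-Tbx5a+miR-19a, each against MO-Ct. The probe of eif2ak2 had a mean of 5.66, near the lower end of the scale. The kinases eif2ak3 and eif2ak4 had no probe and were not measured. Among factors that bring the initiator tRNA by other routes, eif2a fell (-0.58, lost without MO-Ct replicate 2) and eif2d changed by 0.08 without a call.

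The exchange factor eIF2B gave 6 falls among 9 probes (median -0.54) and 6 rises with miR-19a. Its catalytic subunit eif2b5 showed 3 probes with unlike changes. Probe 1 read 11.93, 12.23 and 12.18 in MO-Tbx5a+miR-19a, 12.19, 12.30 and 12.15 in MO-Tbx5a, and 11.89 and 12.22 in MO-Ct, so the groups overlapped. Probe 2 read 10.25, 9.96 and 10.18 in MO-Tbx5a+miR-19a, 8.25, 8.45 and 8.17 in MO-Tbx5a, and 9.61 and 9.61 in MO-Ct, so the 3 groups were apart, with MO-Tbx5a+miR-19a on top. Its change was -1.32 ± 0.13 in MO-Tbx5a against MO-Ct (adjusted p = 2.06e-05) and 1.84 ± 0.12 with miR-19a against MO-Tbx5a (adjusted p = 7.44e-07). For probe 1 the change in MO-Tbx5a against MO-Ct was 0.16, with a 95% interval of -0.15 to 0.46. Other subunits were unlike each other. Probe 2 of the regulatory eif2b4 fell in MO-Tbx5a (-1.28) and rose with miR-19a (1.82), and its probe 1 changed by -0.07 and -0.12 without a call. Both eif2b1 probes fell (-0.54 and -1.23), the first not without MO-Ct replicate 2, and eif2b3 was not called in any comparison.

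The scaffold eIF3, which joins the small subunit to eIF4G, had the most probes of any complex and the most falls. In MO-Tbx5a 20 of its 32 probes fell, 1 rose, and the median was -0.65. At least 1 probe fell in 11 of its 15 genes, and 5 of the falls were of eif3ea. The share that fell was higher in eIF1 and eIF1A (6 of 6), eIF6 (2 of 2) and eIF2B (6 of 9). With miR-19a 15 eIF3 probes rose and 3 fell. The probe of eif3ha read 10.29, 9.80 and 10.39 in MO-Tbx5a+miR-19a, 8.65, 8.47 and 8.20 in MO-Tbx5a, and 10.12 and 10.08 in MO-Ct. All MO-Tbx5a arrays were more than 1 log2 unit below the rest, and the change was -1.66 ± 0.18 against MO-Ct (adjusted p = 3.2e-05). The probe of eif3s6ip, the eIF3l subunit, read 14.72, 14.57 and 14.82 in MO-Tbx5a+miR-19a, 13.76, 13.71 and 13.37 in MO-Tbx5a, and 14.76 and 14.81 in MO-Ct. It fell in MO-Tbx5a by 1.17 ± 0.14 (adjusted p = 6.4e-05) and rose with miR-19a by 1.09 ± 0.13 (adjusted p = 2.51e-05). Probes of eif3f, eif3k and eif3m fell too, by 0.73 to 1.07. Those of eif3ba, eif3c, eif3g and eif3jb were not called in MO-Tbx5a, and eif3jb fell with miR-19a (-0.46, not without MO-Tbx5a replicate 2 or MO-Tbx5a+miR-19a replicate 1).

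In several genes of eIF3 the probes told the change differently. Of the 6 probes of eif3ea, probe 1 changed by -0.14 ± 0.13 in MO-Tbx5a without a call, and the other 5 fell by 0.78 to 1.28. Probe 4 of this gene read 13.13, 12.48 and 12.89 in MO-Tbx5a+miR-19a, 12.01, 11.76 and 11.51 in MO-Tbx5a, and 12.96 and 13.13 in MO-Ct. In eif3s10, the eIF3a subunit, probe 3 rose (0.85 ± 0.14, adjusted p = 0.000387), probe 2 fell (-0.65, not without MO-Ct replicate 2) and probe 1 changed by 0.11. In eif3i all 3 probes fell in MO-Tbx5a, by 0.67, 0.64 and 1.43, but with miR-19a probe 3 alone rose (1.18 ± 0.15), while probes 1 and 2 changed by 0.09 and 0.33 without a call. In eif3ja probe 2 fell (-1.14) and rose with miR-19a (1.05), and probe 1 changed by -0.03 in MO-Tbx5a without a call. In eif3d probe 2 fell (-0.52, not without MO-Ct replicate 1) and probe 1 changed by -0.04, and in eif3hb probes 1 to 3 fell by 0.59 to 0.69 (probe 3 not without either MO-Ct array) and probe 4 changed by -0.30 without a call.

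Among the factors that unwind the mRNA, 8 of 17 eIF4A, eIF4B and eIF4H probes fell and 1 rose. The helicase eif4a1a read 12.13, 11.60 and 11.91 in MO-Tbx5a+miR-19a, 10.32, 10.58 and 10.30 in MO-Tbx5a, and 11.35 and 11.40 in MO-Ct. It fell in MO-Tbx5a by 0.97 ± 0.16 (adjusted p = 0.000417), and MO-Tbx5a+miR-19a differed from MO-Ct by 0.51 ± 0.16 without a call (adjusted p = 0.0573), although the arrays did not overlap. Probe 1 of eif4a1b fell by 1.47, and its probe 2 changed by -0.17. Both probes of eif4a3, the helicase of the exon junction complex, fell (-0.69 and -1.04), and both of eif4a2 were not called. The helicase cofactor eif4h had probes 1 and 2 at -0.09 and -0.03 without a call and probes 3 and 4 at -1.22 and -1.24. In eif4ba probe 2 rose (0.77) and probe 3 fell (-0.57, not without MO-Ct replicate 2), and in eif4bb probe 3 fell (-0.63, with the same exception).

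The cap-binding eIF4E family gave 5 falls and 1 rise among 13 probes. The probe of eif4e2rs1, a paralog of the eIF4E2 class, read 11.12, 10.77 and 10.97 in MO-Tbx5a+miR-19a, 9.21, 9.40 and 9.23 in MO-Tbx5a, and 10.72 and 10.55 in MO-Ct. It was lower on all MO-Tbx5a arrays (-1.35 ± 0.14 against MO-Ct, adjusted p = 1.99e-05) and rose with miR-19a (1.67 ± 0.12, adjusted p = 1.29e-06). In eif4eb the probes ran in opposite directions. Probe 1 read 9.92, 9.91 and 9.91 in MO-Tbx5a+miR-19a, 10.39, 10.40 and 10.49 in MO-Tbx5a, and 9.94 and 10.15 in MO-Ct, with MO-Tbx5a above the rest. Probe 2 read 9.88, 9.56 and 9.80 in MO-Tbx5a+miR-19a, 8.77, 9.02 and 8.91 in MO-Tbx5a, and 9.60 and 9.62 in MO-Ct, with MO-Tbx5a below the rest. Neither probe had overlapping groups in MO-Tbx5a against MO-Ct. The fall of probe 2 was -0.71 ± 0.13, and the rise of probe 1, 0.38 ± 0.12, was at the fold threshold and was lost without MO-Ct replicate 1 or MO-Tbx5a replicate 3. Probe 1 of eif4e1c fell (-0.69), and eif4e1b, at a mean of 5.10, was not called. Probe 1 of eif4e2 changed by 0.36 in MO-Tbx5a without a call and fell with miR-19a (-0.56). Its probe 3 fell in MO-Tbx5a (-0.56, not without MO-Ct replicate 2) and rose with miR-19a (0.53). Probe 3 of eif4ea fell in MO-Tbx5a (-0.875), and its probes 1 and 2 were not called.

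The eIF4E-binding proteins, which keep eIF4E from eIF4G, turned on a single gene. Of 11 probes 4 fell, all of eif4ebp1. Its probe 3 read 10.05, 9.61 and 10.08 in MO-Tbx5a+miR-19a, 8.05, 8.07 and 7.67 in MO-Tbx5a, and 9.78 and 10.03 in MO-Ct. The fall of 1.98 ± 0.17 against MO-Ct was the largest of all member probes (adjusted p = 9.92e-06), and the rise with miR-19a, 1.98 ± 0.15, was the largest as well (adjusted p = 1.89e-06). Probes 2, 4 and 5 fell by 1.42, 1.67 and 1.02. Probe 1 read 13.81, 13.80 and 14.05 in MO-Tbx5a+miR-19a, 13.61, 13.82 and 13.64 in MO-Tbx5a, and 13.45 and 14.18 in MO-Ct. The MO-Ct arrays lay on either side of the MO-Tbx5a arrays, and the change of probe 1 was -0.12, with a 95% interval of -0.52 to 0.27. The related eif4ebp2 and eif4ebp3 were not called, and eif4ebp3l changed by 0.40 in MO-Tbx5a without a call (adjusted p = 0.0546) and fell with miR-19a (-0.64) by its probe 1. Its probe 2 changed by -0.32 in MO-Tbx5a without a call and rose with miR-19a (0.42, not without MO-Tbx5a replicate 3 or MO-Tbx5a+miR-19a replicate 1), so its probes were called in opposite directions. The eIF4E transporter eif4enif1 rose (0.39, not without either MO-Ct array or MO-Tbx5a replicate 3).

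Among the eIF4G probes rises outnumbered falls in MO-Tbx5a, with 5 rises and 1 fall among 10 probes (median 0.39). With miR-19a 6 fell and 1 rose. Of the 5 rises 3 were of eif4g2b, and eif4g1b, eif4g3a and eif4g3b had no probe. In eif4g2b, a relative of eIF4G that lacks the eIF4E-binding region, all 3 probes rose in MO-Tbx5a and all 3 fell with miR-19a. Probe 3 read 8.74, 9.02 and 8.86 in MO-Tbx5a+miR-19a, 9.95, 9.95 and 9.78 in MO-Tbx5a, and 8.63 and 8.59 in MO-Ct. The MO-Tbx5a arrays were above all others, with a change of 1.28 ± 0.13 against MO-Ct (adjusted p = 1.81e-05) and -1.02 ± 0.11 with miR-19a (adjusted p = 1.73e-05). Probe 1 changed less (0.51 ± 0.13), and its rise was lost without MO-Ct replicate 1. The 6 probes of eif4g1a ran from -1.03 to 1.24 in MO-Tbx5a. Probe 3 read 8.63, 8.85 and 8.44 in MO-Tbx5a+miR-19a, 9.51, 9.74 and 9.86 in MO-Tbx5a, and 8.71 and 8.21 in MO-Ct, and so rose, whereas probe 5 fell and probes 1, 2 and 6 were not called. Probe 4 of eif4g1a rose too, a call lost without MO-Ct replicate 2. The single probe of eif4g2a was not called in any comparison.

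The GTPase activator eif5 was split evenly, with probes 1 and 4 falling in MO-Tbx5a and probes 2 and 3 rising. The fall of probe 4 was lost without MO-Ct replicate 2, and that of probe 1 under quantile normalisation, among others. Both rises were kept under every alternative that left thresholds and probes as they were. Probe 1 read 14.62, 14.50 and 14.67 in MO-Tbx5a+miR-19a, 13.94, 13.99 and 13.85 in MO-Tbx5a, and 14.56 and 14.26 in MO-Ct. Probe 3 read 11.81, 12.01 and 11.88 in MO-Tbx5a+miR-19a, 12.74, 12.96 and 12.84 in MO-Tbx5a, and 11.95 and 11.63 in MO-Ct. The MO-Tbx5a arrays were thus the lowest of all on probe 1 and the highest of all on probe 3. The changes were -0.48 ± 0.13 (adjusted p = 0.0095, lost without MO-Ct replicate 1) and 1.06 ± 0.13 (adjusted p = 9.05e-05), and with miR-19a 0.67 ± 0.11 and -0.95 ± 0.12. The factor eif6, which keeps the large subunit from joining early, fell on both probes (-1.04 ± 0.15 and -1.23 ± 0.15) and rose on both with miR-19a (1.01 and 1.34).

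**Figure D2:**
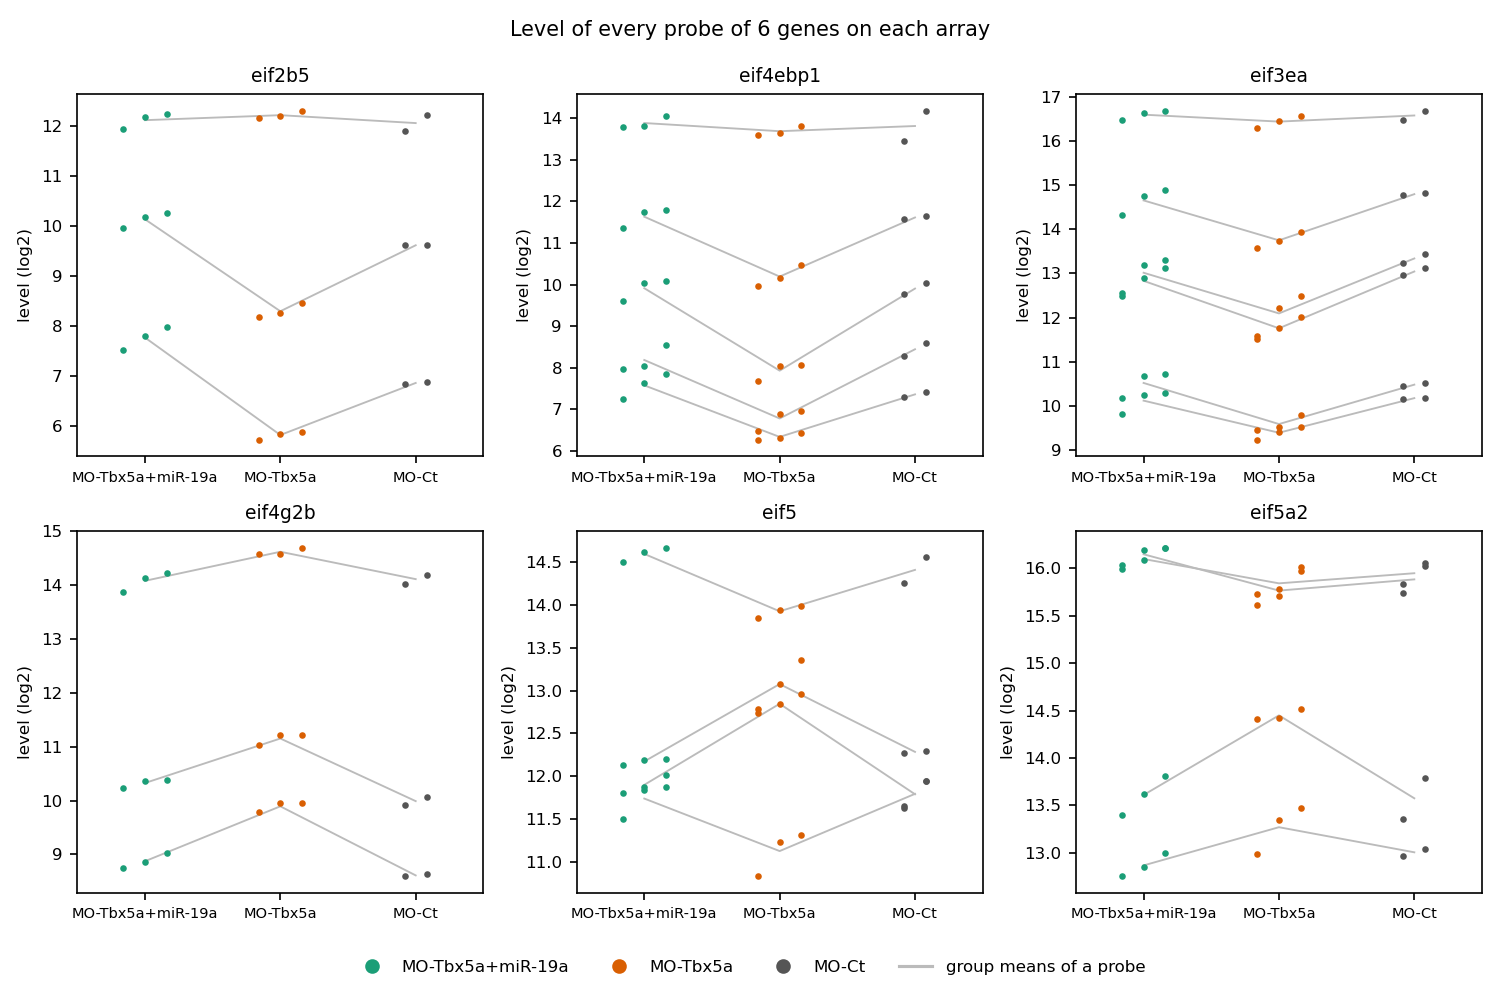
Log2 level of every probe of eif2b5, eif4ebp1, eif3ea, eif4g2b, eif5 and eif5a2 in MO-Tbx5a+miR-19a, MO-Tbx5a and MO-Ct. Each point is an array and grey lines join the group means of a probe. The highest line of eif2b5, eif4ebp1 and eif3ea is nearly flat while lower lines dip in MO-Tbx5a, and in eif5 2 lines dip and 2 rise.

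The peptide-bond factor eIF5A gave 1 rise and 1 fall among 6 probes. Probe 1 of eif5a2 read 16.09, 16.22 and 15.99 in MO-Tbx5a+miR-19a, 15.73, 15.78 and 16.02 in MO-Tbx5a, and 16.06 and 15.84 in MO-Ct, with overlapping groups and a change of -0.11 in MO-Tbx5a (95% interval -0.40 to 0.19). Its probe 3 read 13.62, 13.81 and 13.40 in MO-Tbx5a+miR-19a, 14.41, 14.42 and 14.52 in MO-Tbx5a, and 13.79 and 13.36 in MO-Ct, and rose (0.88 ± 0.15, adjusted p = 0.000802). With miR-19a probe 3 fell (-0.84), and smaller calls of probe 2 (0.38) and probe 4 (-0.40) were each lost without MO-Tbx5a replicate 1, among others. For eif5a, probe 1 changed by 0.01 and probe 2 fell (-0.49), a call lost without either MO-Ct array or MO-Tbx5a replicate 2 or 3.

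The tRNA carrier eEF1A had 22 probes in 6 genes, of which 6 fell and 5 rose in MO-Tbx5a. The coding sequences of these paralogs are alike, so a probe of 1 gene may take up RNA of another. The eef1a1l1 gene, the main eEF1A of the embryo, had 10 probes. Probe 1 read 18.75, 18.65 and 18.40 in MO-Tbx5a+miR-19a, 18.74, 18.65 and 18.62 in MO-Tbx5a, and 18.50 and 18.54 in MO-Ct. The MO-Tbx5a arrays were slightly above the MO-Ct arrays, by 0.15 ± 0.13 (95% interval -0.13 to 0.43), and probes 2, 3, 8 and 9 were not called either. Probe 6 read 17.38, 16.84 and 17.08 in MO-Tbx5a+miR-19a, 16.65, 16.60 and 16.31 in MO-Tbx5a, and 17.18 and 17.14 in MO-Ct, and fell (-0.64 ± 0.16, adjusted p = 0.00722). Probe 10 read 12.81, 12.38 and 12.64 in MO-Tbx5a+miR-19a, 13.11, 13.13 and 13.01 in MO-Tbx5a, and 12.44 and 12.41 in MO-Ct, and rose (0.66 ± 0.14, adjusted p = 0.0022). The calls of probes 4, 5 and 7 were each lost without either MO-Ct array.

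Of the other eEF1A genes, eef1a1l2 had 3 rises and 1 fall among 6 probes. Probe 4 read 7.55, 7.77 and 7.76 in MO-Tbx5a+miR-19a, 8.49, 8.63 and 8.51 in MO-Tbx5a, and 7.78 and 7.82 in MO-Ct, and rose (0.74 ± 0.12). Its probes 1 and 2, at means above 13 in every group, were not called. Both probes of eef1a1b fell in MO-Tbx5a (-0.63 and -0.56), the first not without either MO-Ct array or MO-Tbx5a replicate 3, and the second not without MO-Ct replicate 1. The probe of eef1a1a was not called in MO-Tbx5a and fell with miR-19a (-0.40, lost without MO-Tbx5a replicate 3 or any MO-Tbx5a+miR-19a array). The tissue-restricted eef1a1l3 and eef1a2 had 3 probes at means of 4.87 to 5.76, near the lower end of the scale, and 0 were called by limma in any comparison, with 0 at an unadjusted p under 0.05.

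The exchange complex eEF1B kept the brightest probe of each gene near MO-Ct in MO-Tbx5a. In MO-Tbx5a+miR-19a its probes differed from MO-Ct by -0.66 to -0.08, with a median of -0.29 and 1 called. The probe of eef1b2 read 17.24, 17.17 and 17.17 in MO-Tbx5a+miR-19a, 17.35, 17.21 and 17.36 in MO-Tbx5a, and 17.31 and 17.24 in MO-Ct, with a change of 0.03 in MO-Tbx5a (95% interval -0.22 to 0.28). Probe 1 of the gamma subunit eef1g changed by -0.01. Its probe 2 rose (0.57, not without MO-Ct replicate 2), and its probes 3 and 4 fell (-0.62 and -0.72), calls lost without MO-Ct replicate 2 or MO-Tbx5a replicate 3. In this complex 2 probes fell with miR-19a, probe 2 of eef1g (-0.83) and probe 2 of the delta subunit eef1db (-1.0).

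The translocase gene eef2b had, like eif4ebp1, a brightest probe that was not called. Of its 7 probes 4 fell in MO-Tbx5a, and the others, dimmer ones among them, were not called. Probe 1 read 18.41, 18.36 and 18.41 in MO-Tbx5a+miR-19a, 18.56, 18.44 and 18.25 in MO-Tbx5a, and 18.47 and 18.54 in MO-Ct. Its change in MO-Tbx5a was -0.09 (95% interval -0.36 to 0.18). Probe 4 read 14.07, 13.41 and 13.89 in MO-Tbx5a+miR-19a, 12.99, 12.46 and 12.25 in MO-Tbx5a, and 14.10 and 13.58 in MO-Ct. All MO-Tbx5a arrays of probe 4 were below the rest, and the fall was 1.27 ± 0.24 (adjusted p = 0.00109), with a rise of 1.22 ± 0.21 with miR-19a (adjusted p = 0.000451). Probe 3 fell by 1.24, and smaller falls of probes 2 and 6 were lost without either MO-Ct array. In eef2a.1 probe 2 rose in MO-Tbx5a (0.47, not without either MO-Ct array) and both probes fell with miR-19a (-0.45, not without MO-Tbx5a replicate 2, and -0.83), and eef2a.2 was not called.

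**Figure D3:**
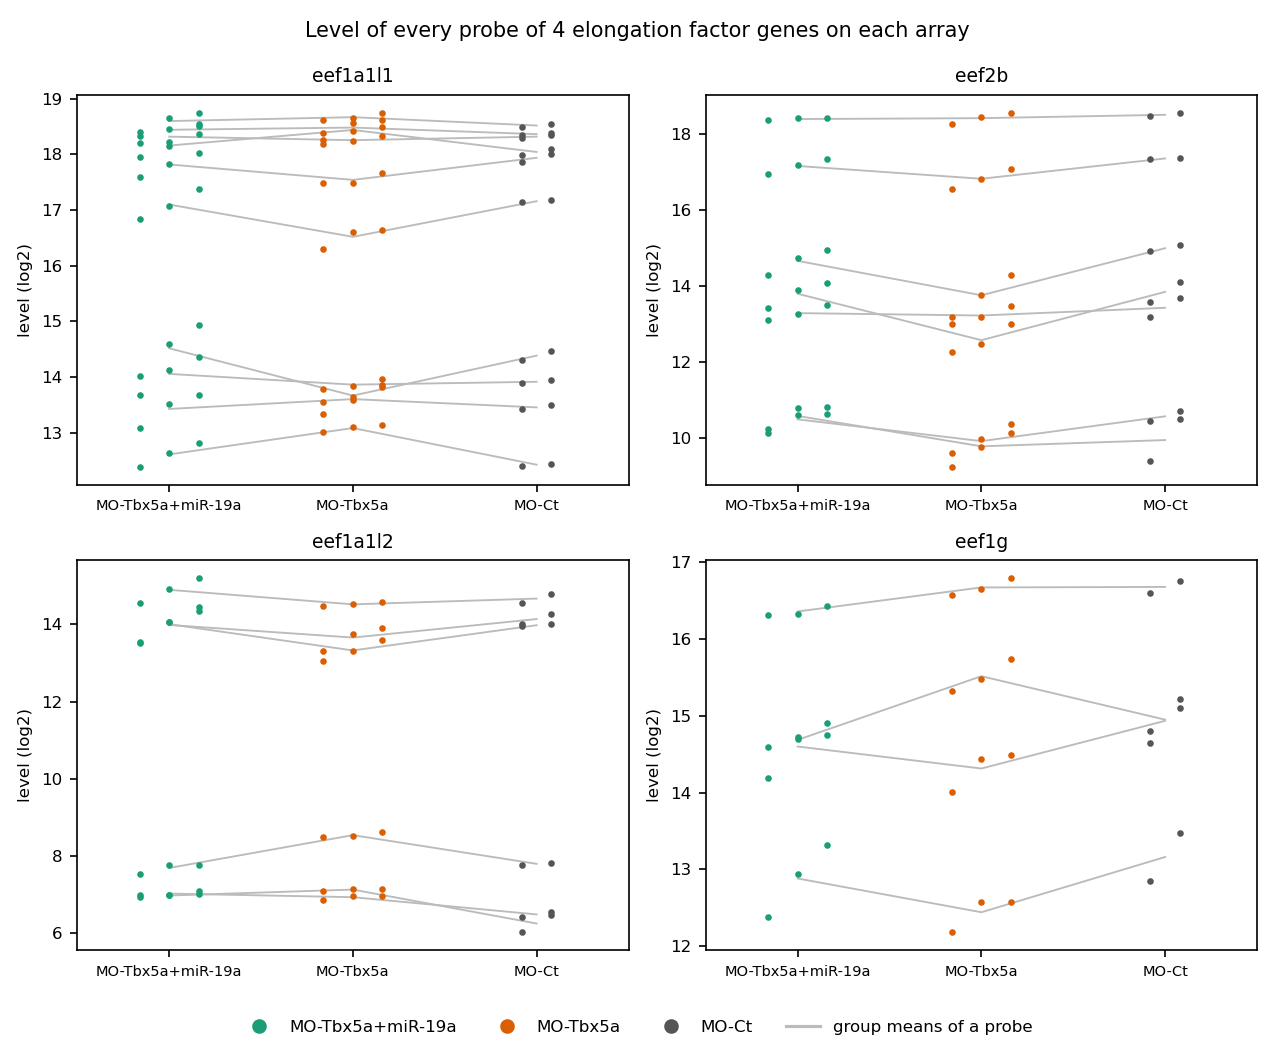
Log2 level of every probe of eef1a1l1, eef2b, eef1a1l2 and eef1g in MO-Tbx5a+miR-19a, MO-Tbx5a and MO-Ct. Each point is an array and grey lines join the group means of a probe. The top lines, at 18.6 for eef1a1l1 and 18.4 for eef2b, are flat. Some lower lines dip or rise in MO-Tbx5a, among them rising lines of eef1a1l2 far below 12.

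Enzymes that modify elongation factors, with 8 probes in eef1akmt1, eef1akmt2, eef2k and eef2kmt, gave 2 rises and 1 fall in MO-Tbx5a, a share near that of all probes. Probe 3 of eef2k, the kinase that inactivates eEF2, read 7.36, 7.83 and 7.38 in MO-Tbx5a+miR-19a, 9.08, 8.78 and 8.38 in MO-Tbx5a, and 7.89 and 7.78 in MO-Ct. It rose in MO-Tbx5a (0.91 ± 0.20, adjusted p = 0.00269) and fell with miR-19a (-1.22 ± 0.17, adjusted p = 0.000114), but probes 1 and 2 changed by 0.01 and -0.45 without a call. Of the eEF1A methyltransferases, probe 1 of eef1akmt2 rose (0.53, not without MO-Ct replicate 1) and probe 2 of eef1akmt1 fell (-0.67, not without MO-Ct replicate 2).

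The unlike probes of 1 gene recurred across the factors. Among the 50 member genes with at least 2 probes, the brightest probe fell in MO-Tbx5a in 13 (26.0%) and rose in 3 (6.0%), with a median of -0.07. Of their 101 other probes 50 fell (49.5%) and 17 rose (16.8%), with a median of -0.45. In 34 genes the brightest probe was not called, and 22 of these had another probe that fell (64.7%, against 32.7% over all named genes) and 9 another that rose (26.5%, against 19.5%). The other probes had a lower mean change than the brightest in 34 of 50 genes (68.0%). Over the 7505 named genes of the array with at least 2 probes this share was 61.6%. Of these genes 18.6% of brightest probes fell, with a median of 0.01, and 27.0% of other probes, with a median of -0.06. The direction was thus that of the array at large and the gap was wider among the translation factors, a difference that was not tested. All probes fell in 8 genes with at least 2 probes (eif1axa, eif1b, eif2b1, eif3i, eif3k, eif4a3, eif6 and eef1a1b), and all rose in eif4g2b. The share over all named genes was not counted, so this list does not show how the factors compare with the array. Calls in eif1axa, eif1b, eif2b1, eef1a1b and eif4g2b were among those lost without single arrays. With miR-19a 11 brightest probes rose (22%, against 19.3% over all named genes) and 9 fell (18.0%, against 24.2%). Of the other probes 44 rose (43.6%, against 27.7%) and 16 fell (15.8%, against 20.1%).

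**Figure D4:**
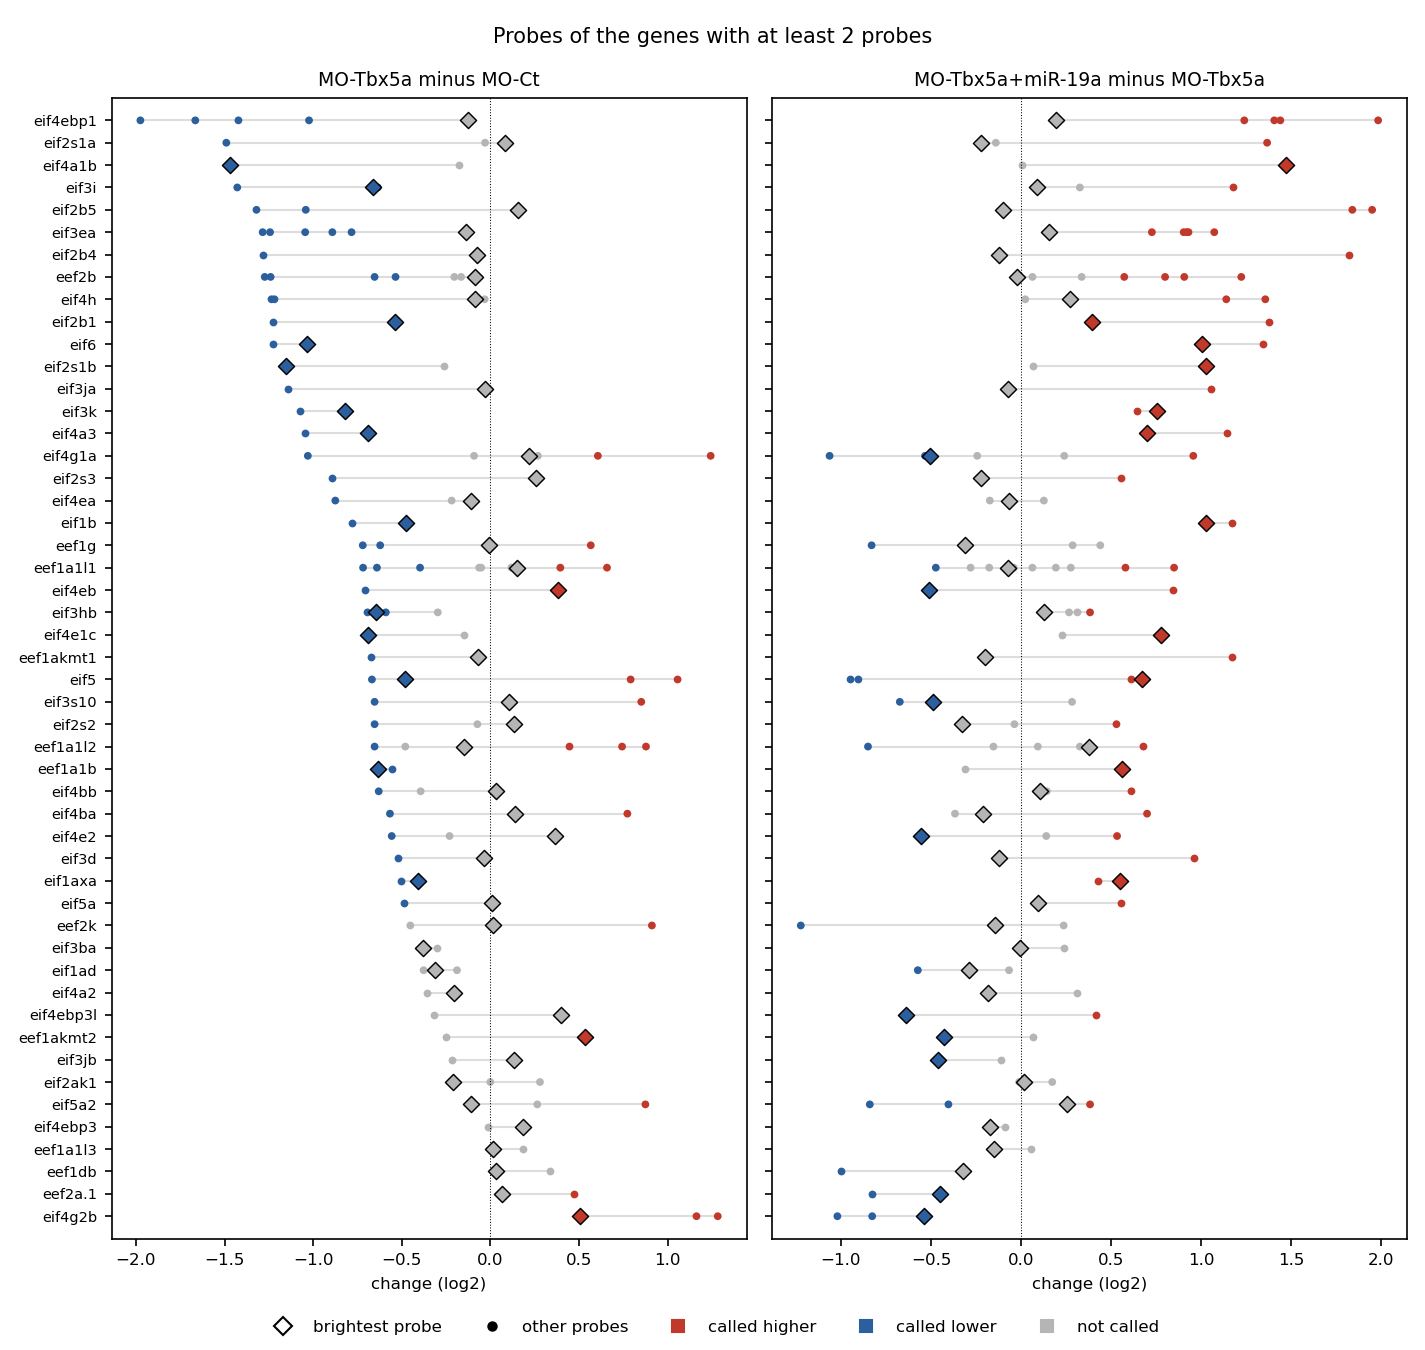
Change of each probe of the 50 translation factor genes with at least 2 probes, on the log2 scale, as MO-Tbx5a minus MO-Ct (first panel) and MO-Tbx5a+miR-19a minus MO-Tbx5a (the other panel). Diamonds are the brightest probe of a gene and circles its other probes, coloured by call. Genes are ordered by their lowest probe change in the first panel, the lowest at the top. Most diamonds in the upper part of that panel lie right of circles of the same gene, which this order favours. In eif4ebp1 the diamond is at -0.12 and the circles reach -1.98.

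Calls in both directions within 1 gene were found in MO-Tbx5a in 8 of the 23 member genes that had 2 or more called probes (34.8%, against 28.4% of all named genes). These were eef1a1l1, eef1a1l2, eef1g, eif3s10, eif4ba, eif4eb, eif4g1a and eif5, and without MO-Ct replicate 2 there were 4. With miR-19a there were 8 of 22 (36.4%, against 28.2%), with eif4e2, eif4ebp3l and eif5a2 in place of eef1g, eif3s10 and eif4ba, and without MO-Tbx5a+miR-19a replicate 1 there were 5. For MO-Tbx5a+miR-19a set against MO-Ct there were 0, with 3 genes that had 2 or more called probes. Where in the transcript each probe lies was not used here, and its part in these differences was not tested.

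A small set of probes stood apart from MO-Ct in MO-Tbx5a+miR-19a, 13 of 10 genes. The probe of eif4e3, a cap-binding protein of the eIF4E family, read 11.21, 11.24 and 11.27 in MO-Tbx5a+miR-19a, 11.93, 11.94 and 11.77 in MO-Tbx5a, and 12.19 and 11.98 in MO-Ct. It was below MO-Ct on all 3 arrays by a mean of 0.84 ± 0.12 (adjusted p = 0.00141), and its change in MO-Tbx5a was -0.20 without a call. Probe 2 of eif1ad, a protein with an eIF1A domain, read 11.73, 11.75 and 11.66 in MO-Tbx5a+miR-19a, 12.49, 12.06 and 12.31 in MO-Tbx5a, and 12.41 and 12.54 in MO-Ct. Its change against MO-Ct was -0.76 ± 0.14 and that of probe 1 was -0.60 ± 0.12, calls lost without MO-Ct replicate 2 for probe 2 and without MO-Ct replicate 1 for probe 1. Probe 2 of eef1db was lower by 0.66 (not without MO-Ct replicate 2), and probe 2 of eef1a1b was lower by 0.87 ± 0.14 (adjusted p = 0.00256). Probe 1 of eif3hb, probe 1 of eif3i and probe 3 of eif4ea were lower too.

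Above MO-Ct in MO-Tbx5a+miR-19a were probes 2 and 3 of eif2b5, probe 1 of eif1b, and probes 5 and 6 of eef1a1l2. Probe 3 of eif2b5 read 7.80, 7.51 and 7.98 in MO-Tbx5a+miR-19a, 5.84, 5.72 and 5.88 in MO-Tbx5a, and 6.83 and 6.88 in MO-Ct. The MO-Tbx5a arrays were below MO-Ct and the MO-Tbx5a+miR-19a arrays above it, by 0.91 ± 0.14 (adjusted p = 0.00237). Probe 1 of eif1b read 12.71, 12.27 and 12.53 in MO-Tbx5a+miR-19a, 11.36, 11.59 and 11.48 in MO-Tbx5a, and 11.98 and 11.92 in MO-Ct, a change of 0.55 against MO-Ct. Probe 6 of eef1a1l2 read 6.94, 6.99 and 7.01 in MO-Tbx5a+miR-19a, 7.14, 7.16 and 7.10 in MO-Tbx5a, and 6.48 and 6.03 in MO-Ct, and so was high with and without miR-19a. Calls of 3 of the 13 probes, those of eif4e3, eef1a1b and probe 3 of eif2b5, were kept under every alternative that left the thresholds and probes as they were. The others were lost without at least 1 array, and leaving out MO-Ct replicate 2 left 1 probe higher and 3 lower. Labelling kit and group cannot be told apart here.

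**Figure D5:**
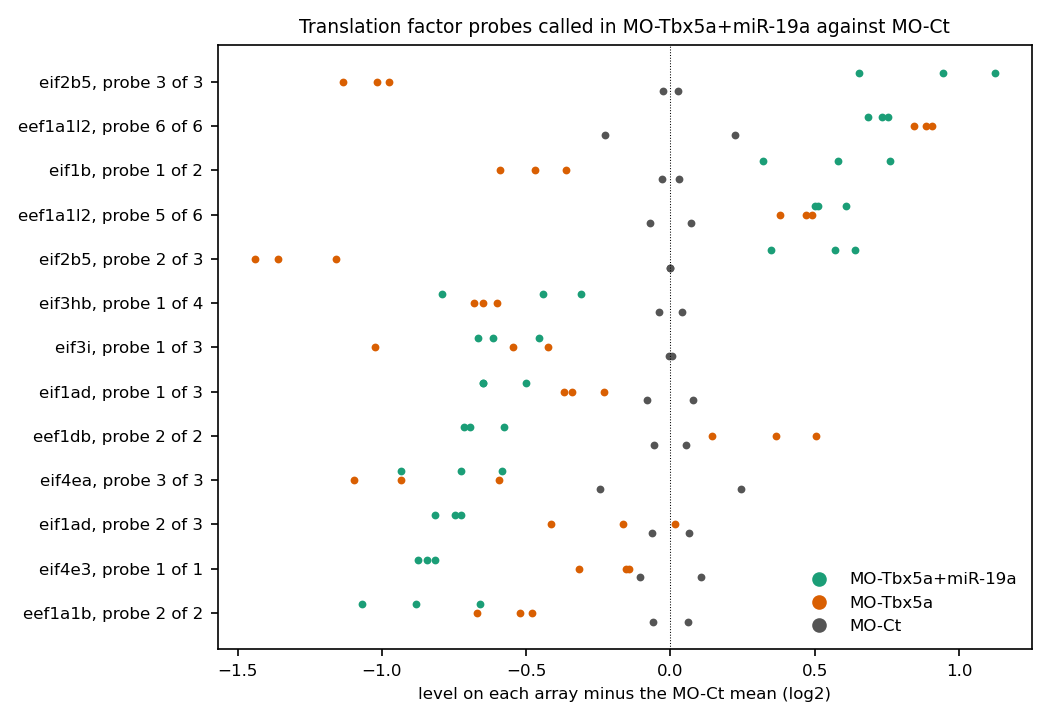
Log2 level on each array minus the MO-Ct mean, for the 13 translation factor probes called in MO-Tbx5a+miR-19a relative to MO-Ct. Points are arrays of MO-Tbx5a+miR-19a, MO-Tbx5a and MO-Ct. For eif2b5 and eif1b the MO-Tbx5a+miR-19a points are right of 0 and the MO-Tbx5a points left of it, for probe 2 of eef1db the reverse, and for the other genes both groups lie mostly on the same side.

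Of the 75 genes, 46 had a probe that fell in MO-Tbx5a (61.3%, against 34.7% of all named genes), 14 a probe that rose (18.7%, against 24.8%), and 17 no called probe in any comparison (22.7%, against 31.0%). Such counts grow with the probes per gene, of which the factors had a mean of 2.35 and all named genes 1.93. Among genes with at least 2 probes, 72.0% of the factors and 42.6% of all had a probe that fell. The factors with no called probe were eef1a1l3, eef1a2, eef1b2, eef2a.2, eef2kmt, eif2ak1, eif2ak2, eif2b3, eif2d, eif3ba, eif3c, eif3g, eif4a2, eif4e1b, eif4ebp2, eif4ebp3 and eif4g2a.

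Other genes of the translation machinery were read from 7 lists of 88 symbols, of which 66 had 169 probes. In MO-Tbx5a 55 of these probes fell (32.5%, against 19.6% of all probes) and 26 rose (15.4%, against 18.7%), and with miR-19a 63 rose (37.3%, against 20.2%) and 33 fell (19.5%, against 21.9%). The list of aminoacyl-tRNA synthetases and their cofactors, which also held the mitochondrial fars2, gave 21 falls (42.9%) and 3 rises (6.12%) among 49 probes, with 22 rises and 5 falls with miR-19a. The brightest probe of tars1, which charges tRNA with threonine, changed by -1.70 ± 0.16 in MO-Tbx5a (adjusted p = 1.4e-05) and by 1.57 ± 0.14 with miR-19a. Probe 2 of tars1 changed by 0.175 in MO-Tbx5a without a call and fell with miR-19a (-0.38). Release and recycling factors gave 6 falls (31.6%) and 1 rise among 19 probes. The release factor etf1a changed by -0.67 ± 0.13 on a dim probe, at 5.61 to 6.65. For its paralog etf1b, probe 1 changed by -0.365 without a call and probe 2 fell (-1.52 ± 0.16). Poly(A)-binding proteins and cap regulators were mixed, with 9 falls (22.5%) and 12 rises among 40 probes. Probe 1 of the eIF4E kinase mknk2b rose by 1.33 ± 0.20 and fell with miR-19a (-1.45 ± 0.18). Probe 1 of pabpc1b, a poly(A)-binding protein, rose by 0.58 ± 0.13. Probe 1 of mknk1 (-0.71 ± 0.13) and probe 2 of paip2b (-1.29 ± 0.15) fell in MO-Tbx5a. Other probes of these genes differed. Probe 2 of mknk1 (0.31) and probe 1 of paip2b (0.29) were not called in MO-Tbx5a and fell with miR-19a (-1.02 and -0.62). Probe 3 of mknk1 was not called in either. Genes of the stress response downstream of eIF2 gave 7 falls (38.9%) and 2 rises among 18 probes. The falls were of every chac1 probe, the probe of atf3, probe 1 of sesn2, and probe 2 of atf4a and of atf4b. Probe 1 of atf4b (0.55) and the probe of trib3 (0.51) rose. Probe 1 of atf4a (0.20), asns, ddit3 and ppp1r15a were not called in MO-Tbx5a against MO-Ct. With miR-19a this list gave 8 rises (44.4%) and 2 falls (11.1%). Probe 1 of ddit3 fell with miR-19a (-1.34 ± 0.25), and its probe 2 was lower than MO-Ct in MO-Tbx5a+miR-19a (-0.65). Mitochondrial factors gave 5 falls (33.3%, against 19.6% of all probes) and 3 rises among 15 probes. The mTOR pathway gave 4 falls and 5 rises among 20, with a share of falls near that of all probes. The list of eIF5A hypusination with selenocysteine decoding gave 3 and 0 among 8.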

How the data were processed

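Per the methods, the authors corrected median spot signals with normexp and normalised the arrays by cyclic loess with limma. The deposited log2 values of 39162 probes on 8 arrays, from 4.06 to 19.4, were used with no further normalisation. Feature Extraction versions 10.7 and 9.1 are named in the submitters' processing notes. For the 3 MO-Tbx5a+miR-19a samples the deposited scanner intensity values and other columns (flags per spot) served only to name probes by their accession, to compare the scans with the matrix and to count spots. On each scan 175 of 176 member spots were well above background and 0 were saturated. These flags cover only MO-Tbx5a+miR-19a, whose scans did not follow their matrix columns. Saturation on the MO-Tbx5a and MO-Ct arrays was not examined, and compression of changes near the top of the scale was not tested. A member probe of eif4e1b that is on the scans only was not used.

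Accessions were matched without versions to a RefSeq gene table (assembly GRCz12tu, names only), which named 24716 probes (63.1%). Of its 86 eif and eef symbols, 75 had a probe. Group means were modelled for all 39162 probes over the 8 arrays with lmFit and eBayes (limma 3.58.1, R 4.3.3), with 5 residual degrees of freedom, and tested on simulated data. All p-values are two-sided, and adjusted p is by Benjamini-Hochberg over all probes. A call needed a fold change above 1.3, p under 0.05 and adjusted p under 0.05, the criteria of the study. Arrays have no read depth, and their number limits the precision. In all 4.4% of values were under 5, where changes can be compressed.

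Genes were named by these rules: the 10 largest called rises and falls by the probe with the highest mean in each comparison, all genes of eEF1A, eEF2, eIF2, the eIF2 kinases, eIF4E with its binding proteins, eIF4G, eIF4A and eIF5A, the brightest gene of each other complex, and genes with calls in both directions. Other probes and genes named were chosen after their values were seen. The members, complexes and lists were chosen with earlier results of these data known. Alternatives covered normalisation, a filter on dim probes, the eBayes step, the arrays in the fit, a replicate block, leaving out each array, the fold threshold and counting by gene. The study's qPCR and sequencing data are not analysed here.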

Additional observations from a re-analysis of the deposited data

How the results depend on the processing

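In what follows the depletion comparison is MO-Tbx5a minus MO-Ct, the mimic comparison MO-Tbx5a+miR-19a minus MO-Tbx5a, and the residual comparison MO-Tbx5a+miR-19a minus MO-Ct. Over the named genes 174 changes were recomputed under 2721 combinations with an alternative. Of these 2600 kept their call or lack of one, 79 lost a call and 34 gained one. In 119 of the 2600 the sign changed without a call in either setting. Taking the mean of all probes of a gene in place of the brightest turned 8 directions: eef2b (0.55), eif2b4 (0.85), eif4e2 (0.039), eif4eb (0.17) and eif5 (-0.14) in the mimic comparison, and eif2s1a (-0.48), eif4eb (-0.16) and eif5 (0.17) in the depletion comparison. Of the member probes called, 58 of 94 in the depletion comparison, 71 of 92 in the mimic comparison and 3 of 13 in the residual comparison kept their call under every alternative that left thresholds and probes as they were, and 0 were called the opposite way under any.

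Counts followed the threshold and the unit of counting by construction. With a fold change above 2, the depletion comparison gave 29 lower and 4 higher probes, the mimic comparison 28 higher and 3 lower, and the residual comparison 0 and 0, with 1, 0 and 0 genes called in both directions. By the mean of the probes of each gene the same comparisons gave 31 lower and 2 higher, 29 higher and 5 lower, and 2 higher and 5 lower genes. For counts under the alternatives, other than by the brightest probe, no share over the whole array is given here. Those counts do not show how the members compare with it. By the brightest probe, chosen after seeing the data for these counts, they gave 23 lower and 4 higher, 21 higher and 11 lower, and 1 higher and 4 lower, with medians of -0.10 and -0.0067 (the sign of the 0.17 over probes turned) in the depletion comparison and the mimic comparison.

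Leaving out 1 array at a time gave 51 to 73 lower and 15 to 22 higher probes in the depletion comparison, with medians of -0.28 to -0.21 and 4 to 9 genes called in both directions. It gave 55 to 72 higher and 25 to 27 lower probes in the mimic comparison, with medians of 0.13 to 0.21 and 5 to 8 such genes. For the residual comparison it gave 1 to 10 higher and 3 to 10 lower probes, with medians of -0.11 to -0.0125. Here 1 array moved the counts of 5 and 8 by over 1.5 times: without MO-Ct replicate 1 there were 3 higher and 5 lower, without MO-Ct replicate 2 1 and 3, without replicate 1 or 3 of MO-Tbx5a+miR-19a 3 higher, and without its replicate 2 there were 10 higher. The cause was not tested.

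Deviations from the group mean of samples with the same replicate number had correlations from -0.222 to 0.178. With 2 or 3 arrays in a group, and the 2 MO-Ct arrays mirroring each other, these values cannot show whether the numbers pair samples. With the replicate number as a block, the residual comparison gave 3 higher and 5 lower probes, the depletion comparison 67 lower and 21 higher, and the mimic comparison 65 higher and 27 lower. MO-Ct rests on 2 arrays, and leaving out either leaves 1 whose spread is assumed to be that of the other groups.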
